A study of Hordeum vulgare with 12 samples.

Results

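Root apices of the barley mutant *hvatr.g* were compared with those of its parent cultivar Sebastian after both had been exposed to zeocin, across all expressed genes. The comparison used 6 of the 12 libraries of the study, the 3 *hvatr.g* and the 3 Sebastian libraries of the zeocin treatment, which were chosen by their genotype and treatment labels. Of the 83990 transcript models in the count table, 26039 had enough counts to be tested and are called genes here, although 548 of these rows are further transcripts of a gene. The *hvatr.g* plants carry a TILLING allele of *ATR* that the study describes as loss of function. All *hvatr.g* libraries come from this 1 mutant line, so other mutations of the line cannot be told apart from that in *ATR*. Plants of all 4 groups were grown from excised embryos on MS medium, were 7 days old and gave poly(A) RNA from dissected root apices. The groups were *hvatr.g* with 500 µg/ml zeocin for 6 h, Sebastian with 500 µg/ml zeocin for 6 h, mock-treated *hvatr.g* with 0 µg/ml and mock-treated Sebastian with 0 µg/ml, each with 3 libraries.

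Zeocin is a bleomycin-type antibiotic that breaks DNA strands. The kinases ATM and ATR pass such damage on to the plant transcription factor SOG1 and to the cell cycle machinery, ATM mainly from double-strand breaks and ATR mainly from single-stranded DNA at stalled replication forks. In the root apex, the dividing cells of the meristem lie next to cells that elongate and differentiate, and damage signalling can slow division and replication there.

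Total counts of the zeocin-treated libraries were 48895935, 36726222 and 38257495 in *hvatr.g* and 36314498, 36789931 and 40841269 in Sebastian. Across genes, which are not independent replicates, log2 CPM (counts relative to library size) of zeocin-treated libraries correlated at 0.966 to 0.987 within a genotype and at 0.937 to 0.962 between genotypes. The libraries are described as biological replicates, and similarly prepared material as the root apices of single plants, but whether each library is a plant of its own is not stated outright, so p-values are read as measuring the spread between these libraries. Calls rest on edgeR's quasi-likelihood test, adjusted after Benjamini-Hochberg over all tested genes, and need an adjusted p under 0.05 together with an absolute log2 fold change of 1 or more. All CPM are TMM-scaled, and replicates 1, 2 and 3 are always given in that order. For 1 gene alone, an exact two-sided permutation test of 3 against 3 libraries has 0.1 as its smallest p. RNA of dividing and of differentiating root cells was present in every zeocin-treated library, with histone genes summing to between 3911 and 8578 CPM and genes of hydrogen peroxide catabolism to between 302 and 1716 CPM. Markers of shoot tissue were not analysed here. The tissue is bulk, so fewer cells of a type and less RNA per cell cannot be told apart.

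The RNA of the mutated gene was present in the mutant. *ATR* (HORVU.MOREX.r3.7HG0748510) had 17.8, 14.3 and 15.2 CPM in zeocin-treated *hvatr.g*, against 11.4, 13.9 and 9.68 CPM in zeocin-treated Sebastian. The groups did not overlap, with *hvatr.g* the higher one, but the difference was not called (log2 fold change 0.43, standard error 0.21, edgeR adjusted p = 0.183). RNA level therefore does not check the genotype labels, since the allele does not remove the transcript.

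Under zeocin, 900 genes were higher in *hvatr.g* than in Sebastian (3.46% of those tested) and 1449 were lower (5.56%), together 9.02%. The higher genes included ubiquitin genes, glutathione S-transferases and *TFIIIA*, and the lower ones nicotianamine synthases, high affinity nitrate transporters, peroxidases, cyclins and histones. The change reached 4-fold in 305 of the higher and 468 of the lower genes, and 16-fold in 50 and 87. The fitted log2 fold change over all tested genes had a median of 0.00. The groups of 3 libraries did not overlap in 2322 of the 2349 called genes, against 16.9% of all tested genes with *hvatr.g* higher and 19.4% with *hvatr.g* lower. Without *hvatr.g* zeocin replicate 3, 552 genes were called higher and 991 lower. Scaling by library size only gave 1073 higher and 1224 lower genes, so the share of higher genes was 46.7%, against 38.3% with TMM. The share of called genes lay between 8.02% on chromosome 6H and 9.77% on chromosome 2H.

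Most called genes differed the same way between mock-treated plants, which form a comparison with no library in common. There, 1007 genes were higher in *hvatr.g* (3.87%) and 1192 lower (4.58%), together 8.45%. Of the 900 genes higher under zeocin, 589 were also called higher in the mock comparison, which is 65.4% of the zeocin list and 58.5% of the mock list. Of the 1449 lower genes, 820 were also called lower there, which is 56.6% of the zeocin list and 68.8% of the mock list. No gene was called in opposite directions. For the remaining 311 higher genes the median log2 fold change was 1.45 under zeocin and 0.81 under mock treatment, and for the remaining 629 lower genes it was -1.37 and -0.74.

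**Figure D1:**
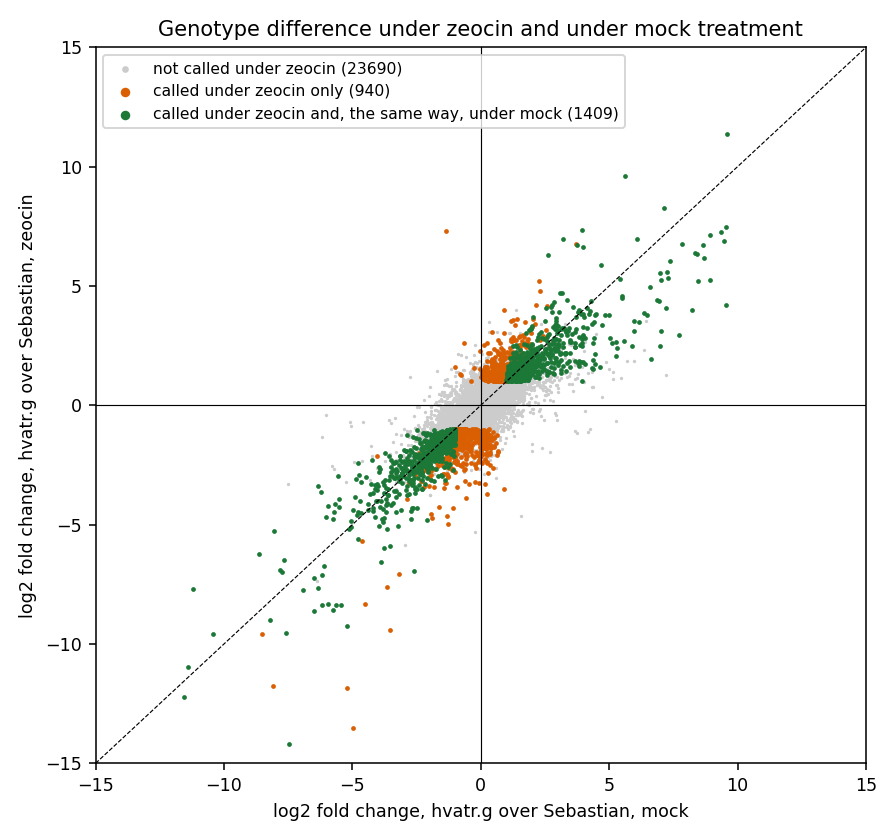
Log2 fold change of *hvatr.g* over Sebastian under zeocin (vertical axis) against that under mock treatment (horizontal axis), 1 point for each of the 26039 tested genes, with the line of equal values dashed. Most of the called genes lie in the 2 quadrants of equal sign: 891 of the 900 higher genes are positive and 1346 of the 1449 lower genes negative under mock treatment.

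Whether the genotype difference itself changed with zeocin was asked with the interaction term, the difference under zeocin minus that under mock treatment. In edgeR's test 0 genes reached an adjusted p under 0.05, and the smallest was 0.149. An unadjusted p under 0.05 was reached by 1120 genes (4.30%), 315 of them (1.21%) with a positive and 805 (3.09%) with a negative term. DESeq2 called 113 genes, 17 positive and 96 negative, and limma-voom 1. Values of the interaction p below are unadjusted.

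The genes with the largest rises in *hvatr.g* were nearly silent in Sebastian. HORVU.MOREX.r3.2HG0195850, which the study's tables place in peptide metabolism without a description, had 191, 147 and 247 CPM in zeocin-treated *hvatr.g*, against 1.37, 1.32 and 0.658 CPM in zeocin-treated Sebastian. Every *hvatr.g* library was thus above every Sebastian library, and the gene was called (log2 fold change 7.45, standard error 0.52, edgeR adjusted p = 1.39e-05). Its neighbour HORVU.MOREX.r3.2HG0195860 is described as ubiquitin, the small protein that marks others for degradation. It had 23.1, 13.5 and 29.9 CPM in zeocin-treated *hvatr.g*, against 0.168, 0.221 and 0.076 CPM in zeocin-treated Sebastian (log2 fold change 7.15, standard error 0.55, edgeR adjusted p = 2.90e-05). Another gene nearby, HORVU.MOREX.r3.2HG0195920 of the ubiquitin family, was named after its values were seen and had 23.2, 7.76 and 33.2 CPM in *hvatr.g* against 0.420, 0.165 and 0.203 CPM in Sebastian. Sequences of these neighbours were not compared, and where they are near-identical, reads may be shared between them in the counts. In mock-treated plants these 3 genes averaged 426, 91.0 and 93.4 CPM in *hvatr.g* against 0.578, 0.181 and 0.276 CPM in Sebastian.

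Of the other genes with the largest rises, HORVU.MOREX.r3.5HG0490390 was at 0 in every zeocin-treated Sebastian library. It had 7.01, 4.01 and 11.3 CPM in zeocin-treated *hvatr.g*, at least 91.8-fold higher against a floor of 3 counts per library. HORVU.MOREX.r3.4HG0333980 was at 0 in Sebastian as well and had 1.34, 0.983 and 4.28 CPM in *hvatr.g*, at least 27.2-fold higher. HORVU.MOREX.r3.4HG0348880 had 94.5, 59.7 and 111 CPM in *hvatr.g* against 1.01, 1.1 and 0.177 CPM in Sebastian. None of these 3 has a description in the tables used here, nor do HORVU.MOREX.r3.5HG0474840 and HORVU.MOREX.r3.7HG0681510, which complete the list with a glycosyltransferase. That glycosyltransferase, HORVU.MOREX.r3.3HG0227940, belongs to the enzymes that attach sugars to small molecules. It had 12.9, 23.1 and 10.1 CPM in zeocin-treated *hvatr.g*, against 0.112, 0.331 and 0.0253 CPM in zeocin-treated Sebastian (log2 fold change 6.62, standard error 0.68, edgeR adjusted p = 0.000132). In mock-treated plants it averaged 0.733 CPM in *hvatr.g* and 0.0443 CPM in Sebastian, so the zeocin-treated *hvatr.g* libraries stood above all the other groups.

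A pair of adjacent tested genes of chromosome 6H was higher in *hvatr.g* under both treatments, with smaller fitted differences under zeocin. These and the gene after them were named after their values were seen. HORVU.MOREX.r3.6HG0548800, described as *TFIIIA*, the factor needed for 5S ribosomal RNA transcription, had 57.8, 41.8 and 70.6 CPM in zeocin-treated *hvatr.g*, against 11.5, 13.6 and 5.24 CPM in zeocin-treated Sebastian (log2 fold change 2.49, standard error 0.37, edgeR adjusted p = 0.00115). Under mock treatment it averaged 44.2 CPM in *hvatr.g* and 0.738 CPM in Sebastian, and the interaction p was 4.97e-05. Zeocin-treated Sebastian was thus well above mock-treated Sebastian, while the *hvatr.g* groups lay close to each other. HORVU.MOREX.r3.6HG0548770, described as coatomer subunit delta, a coat protein of transport vesicles, followed the same order. It had 34.9, 23.4 and 42.7 CPM in zeocin-treated *hvatr.g*, against 11.3, 14.1 and 7.35 CPM in zeocin-treated Sebastian, and averaged 25.3 CPM in mock-treated *hvatr.g* against 1.02 CPM in mock-treated Sebastian. A separate gene of that chromosome, HORVU.MOREX.r3.6HG0549070, described as a chloroplastic linalool synthase, a terpene-forming enzyme, had 8.01, 6.39 and 3.75 CPM in zeocin-treated *hvatr.g* against 0.112, 0.138 and 0 CPM in zeocin-treated Sebastian, and averaged 1.19 CPM in mock-treated *hvatr.g* against 0 CPM in mock-treated Sebastian.

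**Figure D2:**
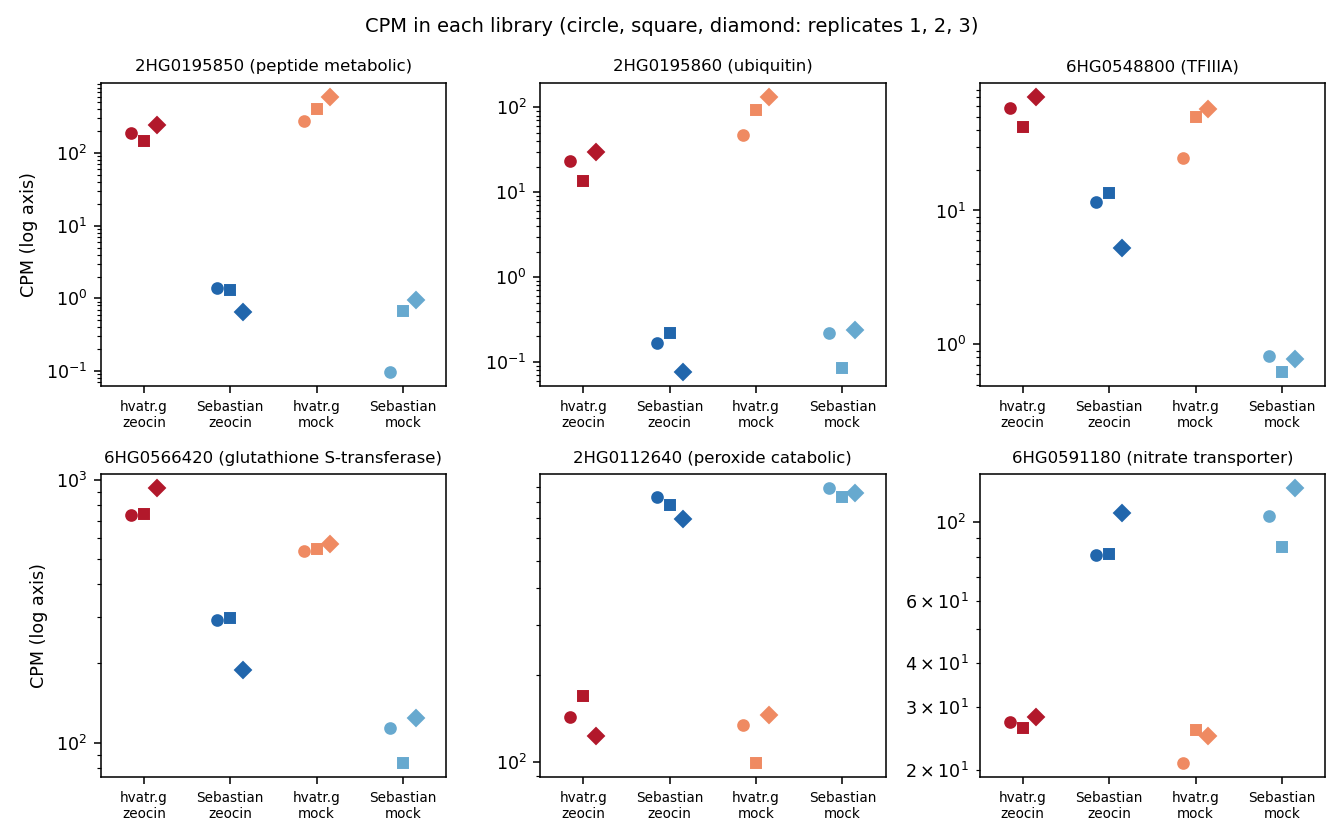
CPM on a log axis in each of the 12 libraries for 6 genes, with the replicates of a group side by side. The zeocin-treated *hvatr.g* libraries lie above the zeocin-treated Sebastian libraries for 2HG0195850, 2HG0195860, 6HG0548800 and 6HG0566420 and below them for 2HG0112640 and 6HG0591180.

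The gene lists described next come from the study's supplement. The GO lists and the lists built from descriptions were drawn up in the study from these same libraries, the nitrogen list from its mock-treated libraries, and the list of DNA damage response (DDR) genes by homology. Except for the last, their counts are no independent evidence of a direction. Each list's median is to be read beside the median of 0.00 over all tested genes under zeocin and 0.02 under mock treatment. Counts of called genes are likewise to be read beside the shares over all tested genes. These were 3.46% higher and 5.56% lower under zeocin, and 3.87% and 4.58% under mock treatment.

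Glutathione-linked detoxification genes were higher in *hvatr.g*. Glutathione is a tripeptide that glutathione S-transferases couple to foreign or damaged molecules. Of the 27 genes under glutathione metabolic process, 14 were called higher (51.9%, beside 3.46% of all genes) and 2 lower (7.41%, beside 5.56%). The median log2 fold change was 1.13. Summed over the list, the level was 3888, 3563 and 4546 CPM in zeocin-treated *hvatr.g* and 2090, 1975 and 1703 CPM in zeocin-treated Sebastian. Under mock treatment, 16 were called higher and 1 lower. HORVU.MOREX.r3.6HG0566420, a glutathione S-transferase, had 735, 744 and 930 CPM in zeocin-treated *hvatr.g*, against 294, 298 and 189 CPM in zeocin-treated Sebastian (log2 fold change 1.63, standard error 0.19, edgeR adjusted p = 0.000306). The list member HORVU.MOREX.r3.5HG0516720, which has no description, stood at 580, 533 and 719 CPM in *hvatr.g* against 177, 176 and 96.5 CPM in Sebastian, a log2 fold change of 2.03. A larger fold was seen at a lower level in the glutathione S-transferase HORVU.MOREX.r3.3HG0311600, with 27.5, 34.4 and 51.4 CPM in *hvatr.g* against 3.31, 3.75 and 2.71 CPM in Sebastian (log2 fold change 3.54). Not all transferases shared this direction. Of 18 genes described as glutathione S-transferases, 7 were called higher (38.9%, beside 3.46% of all genes) and 2 lower (11.1%, beside 5.56%). HORVU.MOREX.r3.7HG0636800 had 2.30, 1.73 and 0.988 CPM in *hvatr.g* against 8.38, 9.68 and 5.04 CPM in Sebastian (log2 fold change -2.19, standard error 0.33, edgeR adjusted p = 0.00136).

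The list for peptide metabolic process, with 44 genes, had 29 called higher (65.9%, beside 3.46% of all genes) and 2 lower (4.55%, beside 5.56%). Its median was 1.61. It holds 23 of the 27 glutathione genes, and the 21 genes outside that list had 16 called higher and 0 lower, with a median of 3.77. Those 21 include both ubiquitin genes named above and genes described as subunits of translation initiation factors. HORVU.MOREX.r3.3HG0275450, without a description, had 52.4, 44.8 and 53.3 CPM in zeocin-treated *hvatr.g*, against 4.21, 4.47 and 2.41 CPM in zeocin-treated Sebastian (log2 fold change 3.77, standard error 0.23, edgeR adjusted p = 7.67e-06). Under mock treatment 19 of the 21 were called higher.

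Transporters and defence genes were among the higher genes too. Of 8 genes under xenobiotic export from cell, 5 were called higher (62.5%, beside 3.46% of all genes) and 0 lower, with a median of 1.59, and the genotypes did not overlap in any of the 8, beside 16.9% of all genes with *hvatr.g* higher. The most abundant of those named, HORVU.MOREX.r3.5HG0499780, had 398, 355 and 419 CPM in zeocin-treated *hvatr.g* against 171, 188 and 129 CPM in zeocin-treated Sebastian (log2 fold change 1.27, standard error 0.14, edgeR adjusted p = 0.000228). *PATHOGENESIS-RELATED PROTEIN 1* genes, a secreted defence family, numbered 8. Of these, 2 were called higher under zeocin (25.0%, beside 3.46% of all genes) and 6 under mock treatment, beside 3.87% of all genes. Their summed level was 178, 212 and 190 CPM in zeocin-treated *hvatr.g* and 121, 24.6 and 84.8 CPM in zeocin-treated Sebastian, with Sebastian replicate 2 far below its fellows. HORVU.MOREX.r3.5HG0444200 of this family had 34.3, 35.4 and 36.3 CPM in *hvatr.g* against 15.8, 3.01 and 7.70 CPM in Sebastian (log2 fold change 2.00, standard error 0.47, edgeR adjusted p = 0.0134). Among 7 chitinases, enzymes that cut fungal cell wall chitin, 1 was called higher and 1 lower (14.3% each, beside 3.46% and 5.56% of all genes).

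Nicotianamine synthesis genes were among those with the largest falls. Nicotianamine chelates iron and other metals, and in grasses it is the precursor of the mugineic acids that roots release to take up iron. All 8 genes listed under nicotianamine biosynthetic process, each described as nicotianamine synthase, were lower in zeocin-treated *hvatr.g*, and their median log2 fold change was -8.91, or -8.36 with groups of 3 or fewer counts set to 3. Their summed level was 0.276, 1.11 and 1.14 CPM in zeocin-treated *hvatr.g*, against 888, 287 and 40.6 CPM in zeocin-treated Sebastian. The Sebastian libraries therefore differed widely among themselves while all lay above *hvatr.g*. Mock-treated plants had 1.46, 0.428 and 0.024 CPM in *hvatr.g* and 6.3, 81.1 and 62.0 CPM in Sebastian, and 7 of the 8 genes were called lower there. HORVU.MOREX.r3.6HG0571820, the most abundant, had 0.217, 0.569 and 0.633 CPM in zeocin-treated *hvatr.g*, against 325, 110 and 14.3 CPM in zeocin-treated Sebastian (log2 fold change -8.34, standard error 1.40, edgeR adjusted p = 0.00234). HORVU.MOREX.r3.4HG0417690 was at 0 in every zeocin-treated *hvatr.g* library and at 73.1, 24.8 and 0.861 CPM in Sebastian, at least 464.5-fold lower. HORVU.MOREX.r3.4HG0415050 had 0, 2 and 0 counts in zeocin-treated *hvatr.g*, against 198, 64.2 and 3.57 CPM in zeocin-treated Sebastian. Limma-voom called only 3 of the 8.

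**Figure D3:**
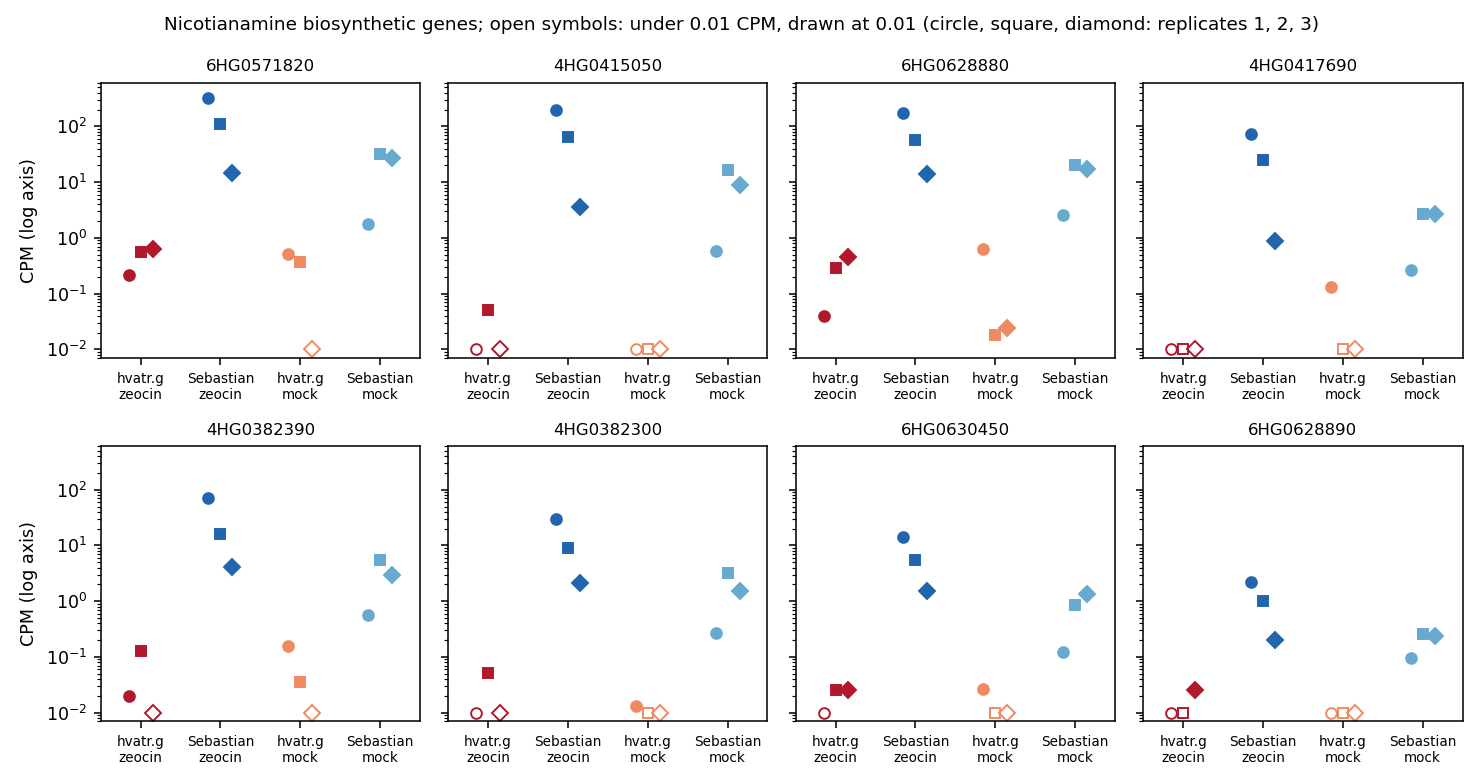
CPM on a log axis in each library for the 8 genes of nicotianamine biosynthesis, with values under 0.01 drawn as open symbols at 0.01. In each panel the 3 zeocin-treated *hvatr.g* libraries lie below the 3 zeocin-treated Sebastian libraries, whose replicate 1 is the highest and replicate 3 the lowest.

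Several other genes with the largest falls had the same grading over the Sebastian libraries. HORVU.MOREX.r3.1HG0072590, of an aminotransferase-related family, was at 0 in all zeocin-treated *hvatr.g* libraries and at 107, 44.3 and 7.22 CPM in Sebastian, at least 743-fold lower. HORVU.MOREX.r3.6HG0571840, described as orotate phosphoribosyltransferase, an enzyme of pyrimidine synthesis, was at 0 in *hvatr.g* and at 24.8, 6.15 and 0.810 CPM in Sebastian, at least 149-fold lower. HORVU.MOREX.r3.4HG0409540, a 2-oxoglutarate and Fe(II)-dependent oxygenase, was at 0 in *hvatr.g* and at 21.3, 7.55 and 0.431 CPM in Sebastian, at least 138-fold lower. The other falls were not graded in this way. HORVU.MOREX.r3.5HG0470780, an endoglucanase that cuts cell wall glucans, was at 0 in *hvatr.g* and at 11.5, 1.38 and 4.03 CPM in Sebastian, at least 79.5-fold lower. HORVU.MOREX.r3.7HG0752450, described as a thionin-like peptide, a small antimicrobial protein, was at 0 in *hvatr.g* and even over the Sebastian libraries, with 2.21, 2.43 and 1.98 CPM, at least 31.1-fold lower. HORVU.MOREX.r3.2HG0110080, described as trophinin, was at 0 in *hvatr.g* and at 5.41, 0.138 and 0.912 CPM in Sebastian.

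Genes of nitrogen uptake and assimilation were lower in *hvatr.g*. All 6 high affinity nitrate transporters tested, which import nitrate when it is scarce, were called lower under both treatments. Their log2 fold changes had medians of -2.32 under zeocin and -2.92 under mock treatment. With groups of 3 or fewer counts set to 3, the medians were -2.04 and -2.78. HORVU.MOREX.r3.6HG0591180, the most abundant, had 27.2, 26.2 and 28.2 CPM in zeocin-treated *hvatr.g*, against 80.6, 81.2 and 106 CPM in zeocin-treated Sebastian (log2 fold change -1.72, standard error 0.16, edgeR adjusted p = 6.92e-05). The groups were far apart beside their spread. HORVU.MOREX.r3.6HG0619730, nitrite reductase, which turns nitrite into ammonium, had 357, 275 and 285 CPM in *hvatr.g* against 682, 593 and 890 CPM in Sebastian (log2 fold change -1.24, standard error 0.17, edgeR adjusted p = 0.000917). HORVU.MOREX.r3.6HG0541410, nitrate reductase, the step before it, had 45.7, 24.8 and 22.1 CPM in *hvatr.g* against 60.1, 71.6 and 84.0 CPM in Sebastian (log2 fold change -1.22, edgeR adjusted p = 0.00824). The ammonium transporter HORVU.MOREX.r3.6HG0595580 was even over *hvatr.g*, with 165, 163 and 165 CPM, against 404, 253 and 391 CPM in Sebastian (log2 fold change -1.09, edgeR adjusted p = 0.00128). Over the whole list of nitrogen transport and metabolism, 31 of 33 genes were tested, with a median of -1.21. Of the 31, 4 were called higher (12.9%, beside 3.46% of all genes) and 17 lower (54.8%, beside 5.56%). In the mock comparison 3 were called higher and 23 lower. The 4 higher genes were the cationic amino acid transporter HORVU.MOREX.r3.5HG0489610 and 3 genes described as peptide transporters, HORVU.MOREX.r3.2HG0194350, HORVU.MOREX.r3.6HG0606430 and HORVU.MOREX.r3.6HG0626180, with log2 fold changes of 1.12, 2.95, 2.53 and 1.23 in the order named. Of the 5 tested genes described as NRT1/PTR, nitrate and peptide transporters of low affinity in most known cases, 3 were called lower. The 3 higher genes described as peptide transporters are not counted among these 5. The most abundant of the 5, HORVU.MOREX.r3.1HG0064910, was not called, with a mean of 43.9 CPM in zeocin-treated *hvatr.g* and 25.7 CPM in zeocin-treated Sebastian (log2 fold change 0.77, edgeR adjusted p = 0.0691). The summed level of the 5 therefore ran the other way, with 32.7, 45.3 and 60.4 CPM in *hvatr.g* and 40.8, 28.9 and 27.3 CPM in Sebastian.

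Peroxide-degrading enzymes were lower in *hvatr.g* as a group, under both treatments. Class III peroxidases use hydrogen peroxide at the cell wall, where they stiffen or loosen it, and many are active in differentiating root cells. Of the 37 genes under hydrogen peroxide catabolic process, 24 were called lower (64.9%, beside 5.56% of all genes) and 0 higher under zeocin. The median log2 fold change was -1.62 there, and 32 were called lower under mock treatment. Their summed level was 436, 418 and 302 CPM in zeocin-treated *hvatr.g*, against 1614, 1716 and 1547 CPM in zeocin-treated Sebastian. HORVU.MOREX.r3.2HG0112640 of this list, without a description of its own, had 143, 169 and 123 CPM in *hvatr.g* against 830, 781 and 695 CPM in Sebastian (log2 fold change -2.40, standard error 0.16, edgeR adjusted p = 1.27e-05). The peroxidase HORVU.MOREX.r3.1HG0025050 had 22.7, 26.4 and 21.9 CPM in *hvatr.g* against 164, 129 and 162 CPM in Sebastian (log2 fold change -2.68). The peroxidase HORVU.MOREX.r3.2HG0112660 lies in the same stretch of chromosome 2H as the first of these, and had 10.1, 8.95 and 7.65 CPM in *hvatr.g* against 81.3, 112 and 108 CPM in Sebastian (log2 fold change -3.49).

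Genes of dividing cells were lower in zeocin-treated *hvatr.g*, while under mock treatment most cell cycle, cyclin and kinesin genes leaned slightly the other way. Positive log2 fold changes under mock treatment numbered 30 of 37 cell cycle genes, 8 of 9 cyclins and 20 of 22 kinesins, but 52 of 131 histones. Of all tested genes 52.5% were positive there. Of the 37 genes under cell cycle, 17 were called lower (45.9%, beside 5.56% of all genes) and 0 higher under zeocin. The median log2 fold change was -0.98 there, against 1 called lower and a median of 0.21 under mock treatment. An interaction p under 0.05 was reached by 31 of the 37, all with a negative term, beside 3.09% of all tested genes with a negative term at that p. None of the 37 passed the adjustment in edgeR's test, while DESeq2 called 10 of them among its 113 calls over all tested genes. DESeq2 also called the interaction in 4 cyclins, 3 kinesins and 8 histones, lists that share some members with the cell cycle list. The cell cycle list was chosen by the study among genes that zeocin lowered in these same libraries. Its summed level was 252, 274 and 171 CPM in zeocin-treated *hvatr.g*, against 392, 366 and 451 CPM in zeocin-treated Sebastian, and 1221, 950 and 887 CPM in mock-treated *hvatr.g*, against 888, 1022 and 843 CPM in mock-treated Sebastian. Zeocin-treated libraries of both genotypes were thus below all mock-treated ones, and those of *hvatr.g* were the lowest. Replicate 3 of zeocin-treated *hvatr.g* was the lowest of all, and without it 11 of the 37 were called.

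Cyclins, the subunits that switch on cell cycle kinases, numbered 9, of which 7 also belong to the cell cycle list. Of the 9, 7 were called lower under zeocin (77.8%, beside 5.56% of all genes) and 0 under mock treatment, with medians of -1.32 and 0.33. HORVU.MOREX.r3.4HG0342640 had 2.38, 4.04 and 2.38 CPM in zeocin-treated *hvatr.g*, against 14.2, 10.2 and 13.96 CPM in zeocin-treated Sebastian (log2 fold change -2.13, standard error 0.22, edgeR adjusted p = 0.000168). It averaged 20.8 CPM in mock-treated *hvatr.g* and 22.1 CPM in mock-treated Sebastian, and its interaction p of 2.06e-05 was among the 6 smallest of all genes. HORVU.MOREX.r3.7HG0751620 had 3.72, 6.00 and 1.44 CPM in *hvatr.g* against 13.8, 8.55 and 23.6 CPM in Sebastian (log2 fold change -2.04, standard error 0.42, edgeR adjusted p = 0.00742). Both groups of that cyclin were wide, but did not overlap. Without *hvatr.g* zeocin replicate 3, 4 of the 9 cyclins were called. HORVU.MOREX.r3.4HG0414340, described as an SMR3-like inhibitor of cyclin-dependent kinases and named after its values were seen, had 91.7, 82.0 and 108 CPM in zeocin-treated *hvatr.g* against 69.9, 77.0 and 63.4 CPM in zeocin-treated Sebastian, and was not called (log2 fold change 0.42, edgeR adjusted p = 0.209).

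Called members of the cell cycle list other than cyclins include genes with mitotic descriptions. Shugoshin-1 (HORVU.MOREX.r3.1HG0039930), which protects the cohesion of sister chromatids at the centromere, averaged 1.61 CPM in zeocin-treated *hvatr.g* and 3.41 CPM in zeocin-treated Sebastian (log2 fold change -1.08, edgeR adjusted p = 0.00381). A TPX2 family gene (HORVU.MOREX.r3.2HG0142680), known for spindle assembly, averaged 3.09 CPM in *hvatr.g* and 7.81 CPM in Sebastian (log2 fold change -1.33, edgeR adjusted p = 0.0149). Of 22 kinesins, motor proteins that move along microtubules, 6 were called lower (27.3%, beside 5.56% of all genes) and 0 higher, with a median of -0.63 against 0.21 under mock treatment, and 4 had a positive log2 fold change. The kinesin-like gene HORVU.MOREX.r3.2HG0174320 had 2.01, 2.17 and 0.988 CPM in *hvatr.g* against 6.73, 4.03 and 6.38 CPM in Sebastian (log2 fold change -1.72, standard error 0.28, edgeR adjusted p = 0.00195). Not every called member of the cell cycle list has a mitotic description: HORVU.MOREX.r3.5HG0444030 is described as cellulose synthase-like, and HORVU.MOREX.r3.5HG0514360 as a tRNA amidotransferase subunit.

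Histone genes, whose RNA is made mainly during DNA replication, had negative log2 fold changes throughout, though few passed the fold threshold. Under zeocin 17 of the 131 were called lower (13.0%, beside 5.56% of all genes) and 0 higher, while 86 passed the adjusted p alone, beside 10.2% of all tested genes that were lower by that rule. Their median was -0.72, against -0.06 under mock treatment, where 0 of 131 were called lower. By class, 10 of 30 H3 genes were called lower (33.3%), 4 of 43 H4 (9.3%), 2 of 25 H2B (8.0%), 1 of 31 H2A (3.23%) and 0 of 2 H1, so that the H2A share lay under the 5.56% of all genes and the H4 and H2B shares near it. All 131 had a negative log2 fold change under zeocin, between -1.64 and -0.04. The histones, like the cyclins and kinesins, were listed by the study among genes that zeocin changed in these same libraries. Their shared direction was therefore not independent of how they were picked. Their summed level was 5085, 4857 and 3911 CPM in zeocin-treated *hvatr.g* and 6488, 6413 and 8578 CPM in zeocin-treated Sebastian, against 12770, 12530 and 12910 CPM in mock-treated *hvatr.g* and 11390, 13060 and 16760 CPM in mock-treated Sebastian. HORVU.MOREX.r3.7HG0658120, an H3 gene, had 2.46, 2.56 and 1.82 CPM in zeocin-treated *hvatr.g*, against 6.11, 4.77 and 7.22 CPM in zeocin-treated Sebastian (log2 fold change -1.40, standard error 0.20, edgeR adjusted p = 0.00104), and an interaction p of 3.55e-05. The calls depended on single libraries, with 9 histones called lower without *hvatr.g* zeocin replicate 3 and 31 without *hvatr.g* zeocin replicate 2. Reads may be shared between histone genes of near-identical sequence, which was not examined.

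Few DNA replication genes were called. Of 32 listed, 4 were called lower (12.5%, beside 5.56% of all genes) and 0 higher, with a median of -0.43, and of the 8 listed under replication initiation 0 were called, with a median of -0.62. The 4 were *POLD4.A*, a small subunit of DNA polymerase delta, *RPA2.L*, a subunit of the single-strand binding protein RPA, origin recognition complex subunit 6 (HORVU.MOREX.r3.2HG0122420) and a gene described as histone-lysine N-methyltransferase (HORVU.MOREX.r3.6HG0548870). Origin recognition complex subunit 6, part of the complex that marks replication origins, had 3.43, 3.67 and 2.05 CPM in zeocin-treated *hvatr.g* against 7.51, 5.73 and 8.43 CPM in zeocin-treated Sebastian (log2 fold change -1.24, standard error 0.24, edgeR adjusted p = 0.00465). By the adjusted p alone, 11 of the 32 were lower, beside 10.2% of all tested genes. A negative interaction term with p under 0.05 was reached by 12 of the 32, beside 3.09% of all tested genes. Under mock treatment the medians of the replication and initiation lists were 0.05 and 0.02. Summed over the 32 genes, the groups overlapped, with 1156, 1042 and 878 CPM in *hvatr.g* and 1017, 1308 and 909 CPM in Sebastian.

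**Figure D4:**
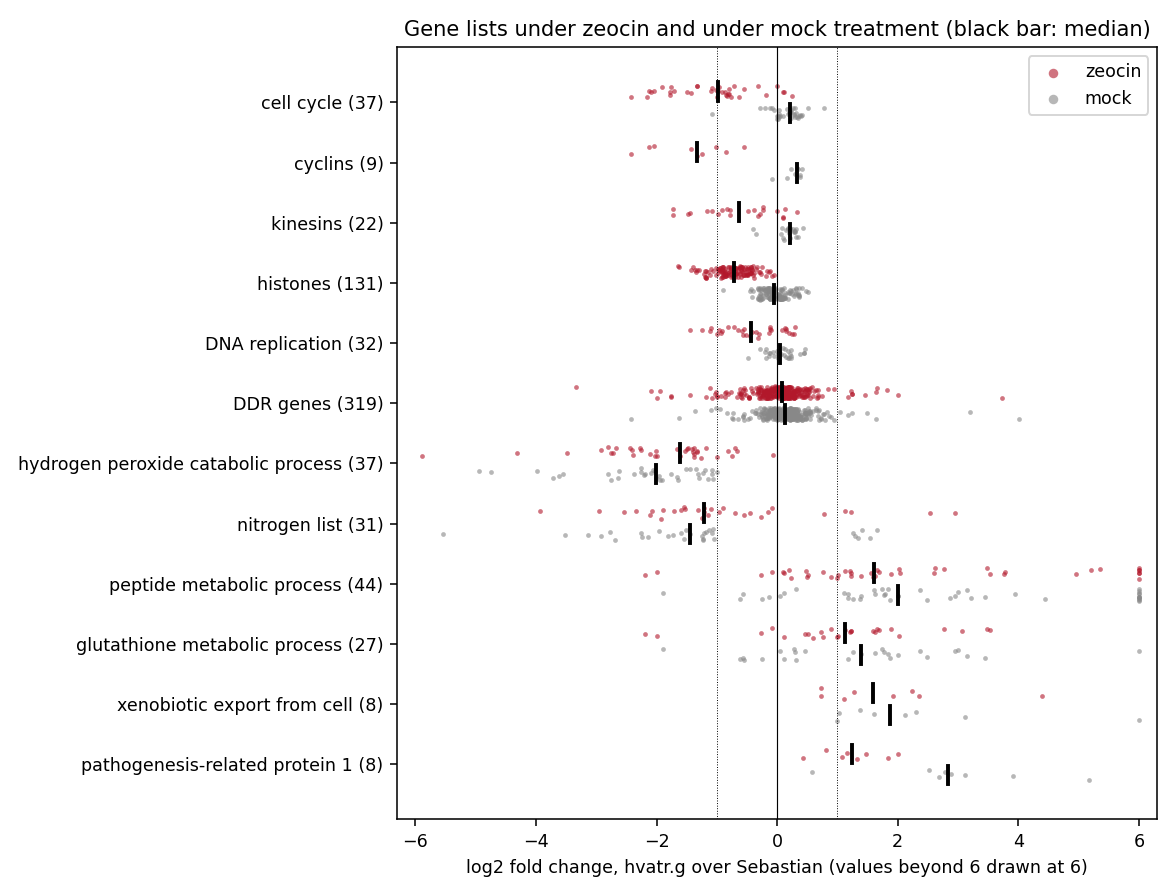
Log2 fold change of *hvatr.g* over Sebastian for each tested gene of 12 lists, under zeocin in red and under mock treatment in grey, with the median of each list as a black bar and dotted lines at the threshold of 1; values beyond 6 are drawn at 6. The cell cycle, cyclin, kinesin and histone lists have medians from -1.32 to -0.63 under zeocin and from -0.06 to 0.33 under mock treatment, while the peroxide, nitrogen and glutathione lists lie on the same side of 0 under both treatments.

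DDR genes as a whole differed no more often than other genes. Of 421 in the list, 319 were tested, of which 9 were called higher (2.82%, beside 3.46% of all genes) and 10 lower (3.13%, beside 5.56%). Their median log2 fold change was 0.08 under zeocin and 0.13 under mock treatment. Among the higher ones, *MSH5*, a MutS homologue that stabilises meiotic crossover intermediates, had 2.36, 2.79 and 2.28 CPM in zeocin-treated *hvatr.g*, against 0.0280, 0.110 and 0.405 CPM in zeocin-treated Sebastian (log2 fold change 3.72, standard error 0.68, edgeR adjusted p = 0.00366). *ARP.B*, an apurinic endonuclease of base excision repair, had 10.3, 9.6 and 9.1 CPM in *hvatr.g* against 2.19, 2.56 and 2.48 CPM in Sebastian (log2 fold change 2.00, standard error 0.32, edgeR adjusted p = 0.00194), and its relative *ARP.C* was higher by a log2 fold change of 1.24. *SGL.C*, a gene similar to *SOG1*, had 6.34, 4.22 and 7.68 CPM in *hvatr.g* against 1.99, 2.32 and 1.55 CPM in Sebastian (log2 fold change 1.64, standard error 0.31, edgeR adjusted p = 0.00462). Its log2 fold change under mock treatment was 3.2. The other genes called higher were *ALKBH2*, which reverses alkylation damage, the *PIF1* helicase homologue *PIF1A.K*, *FDM1.F* and *FDM1.G*, which act in RNA-directed DNA methylation in *Arabidopsis*, and *CRH1.A*, with log2 fold changes of 1.24, 1.82, 1.45, 1.66 and 1.17 in the order named.

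Among the 10 DDR genes called lower were a recombination gene and several replication genes. *RAD52-2.B*, related to the RAD52 proteins that anneal single strands, had 31.3, 35.2 and 28.9 CPM in zeocin-treated *hvatr.g*, against 78.0, 55.6 and 82.6 CPM in zeocin-treated Sebastian (log2 fold change -1.18, standard error 0.16, edgeR adjusted p = 0.000636). *POLD4.A* had 0.866, 1.24 and 0.684 CPM in *hvatr.g* against 2.41, 2.29 and 2.91 CPM in Sebastian (log2 fold change -1.45, standard error 0.22, edgeR adjusted p = 0.00127). In mock-treated plants it averaged 14.2 CPM in *hvatr.g* and 10.5 CPM in Sebastian, and its interaction p was 2.50e-05. *DUT1.C*, whose enzyme keeps uracil out of DNA, had 9.31, 11.2 and 9.63 CPM in *hvatr.g* against 22.1, 13.2 and 26.1 CPM in Sebastian (log2 fold change -1.03). *RPA2.L*, *RPA2.D* and *RPA2.B* had log2 fold changes of -1.11, -1.94 and -3.34, but *RPA2.D* and *RPA2.B* were under 1.3 CPM in every zeocin-treated library, while *RPA2.K*, the most abundant of those named, was not called (111, 97.4 and 92.9 CPM in *hvatr.g* against 82.2, 106 and 88.3 CPM in Sebastian). *CRH1.B*, *RAD5B*, *XRI1.C* and *FDM1.D* complete the list. Without Sebastian zeocin replicate 3, 4 DDR genes were called lower, without *hvatr.g* zeocin replicate 3 the number was 5, and without *hvatr.g* zeocin replicate 1 it was 6.

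**Figure D5:**
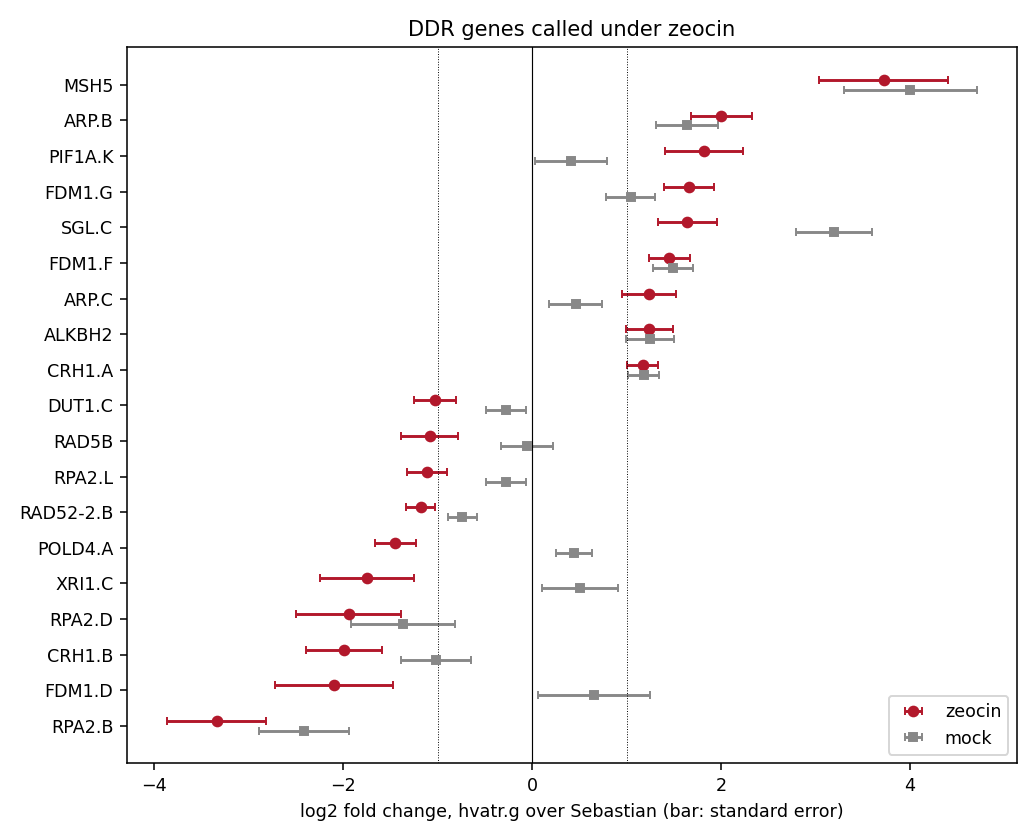
Log2 fold change of *hvatr.g* over Sebastian for the 19 DDR genes called under zeocin, ordered by size, with standard errors as bars, under zeocin as red circles and under mock treatment as grey squares; dotted lines mark the threshold of 1. *MSH5* at 3.72 and *RPA2.B* at -3.34 are the ends of the range, and *POLD4.A*, *XRI1.C* and *FDM1.D* are negative under zeocin and positive under mock treatment.

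A further 21 DDR genes passed the adjusted p but not the fold threshold. Without the fold threshold, 20 DDR genes were higher and 20 lower, beside 6.42% and 10.2% of all tested genes. *TSO2*, a small subunit of ribonucleotide reductase, which supplies the building blocks of DNA, had 942, 812 and 876 CPM in zeocin-treated *hvatr.g*, against 498, 614 and 457 CPM in zeocin-treated Sebastian (log2 fold change 0.75, standard error 0.13, edgeR adjusted p = 0.00293). Mock-treated plants averaged 154 CPM in *hvatr.g* and 162 CPM in Sebastian, and the interaction p was 0.000833. *SGL.D* had 28.8, 27.3 and 33.0 CPM in *hvatr.g* against 19.1, 22.1 and 14.5 CPM in Sebastian (log2 fold change 0.68, edgeR adjusted p = 0.0107). *FAS1*, a subunit of a chaperone that loads histones behind the replication fork, had 8.05, 10.1 and 5.35 CPM in *hvatr.g* against 17.9, 15.5 and 13.5 CPM in Sebastian (log2 fold change -0.996, edgeR adjusted p = 0.0410).

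The kinases and sensors of damage signalling were not called. Of the 9 damage signalling genes tested, which include *SOG1* and its relatives, only *SGL.C* was called. A positive log2 fold change was found in 7 of the 9 under zeocin and in 9 under mock treatment, with medians of 0.40 and 0.31. The groups did not overlap under zeocin in 6 of the 9, with *hvatr.g* higher, beside 16.9% of all tested genes. *ATM* had 57.5, 51.9 and 48.7 CPM in zeocin-treated *hvatr.g*, against 45.7, 44.4 and 30.0 CPM in zeocin-treated Sebastian (log2 fold change 0.40, standard error 0.25, edgeR adjusted p = 0.323). *SOG1* had 11.4, 10.2 and 9.98 CPM in *hvatr.g* against 8.97, 9.51 and 7.47 CPM in Sebastian (log2 fold change 0.29, edgeR adjusted p = 0.294). *WEE1*, a kinase that holds back the cell cycle, was at 32.3, 33.3 and 31.3 CPM in *hvatr.g* and at 33.0, 32.5 and 36.1 CPM in Sebastian, with groups that overlapped. *BRCA1* and *PARP2*, which respond to strand breaks in plants, overlapped between genotypes as well. *BRCA1* had 47.4, 40.4 and 36.6 CPM in *hvatr.g* against 24.0, 45.7 and 18.7 CPM in Sebastian (log2 fold change 0.49, standard error 0.30, edgeR adjusted p = 0.303). *PARP2*, a poly(ADP-ribose) polymerase, had 213, 164 and 157 CPM in *hvatr.g* against 138, 213 and 107 CPM in Sebastian (log2 fold change 0.22, standard error 0.23). For both of these genes Sebastian replicate 2 was the highest of its group and reached into the range of *hvatr.g*. *BARD1*, *PARP1*, *REV3*, *RAD17*, *RAD9*, *NBS1*, *RAD50*, *MRE11.A*, *MRE11.B* and *RMI1* were not called either, with log2 fold changes between -0.62 and 0.34. At the precision of 3 libraries, a missed call does not show that these genes were alike in both genotypes.

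The 6 genes with the smallest interaction p include 3 named above, the cyclin HORVU.MOREX.r3.4HG0342640, *POLD4.A* and the H3 gene HORVU.MOREX.r3.7HG0658120. The smallest of all, 1.09e-05, belonged to a gene annotated as prestin, HORVU.MOREX.r3.2HG0096970. It had 0.335, 0.362 and 0.659 CPM in zeocin-treated *hvatr.g* and 0 in every zeocin-treated Sebastian library, at least 5.58-fold higher, but averaged 0.222 CPM in mock-treated *hvatr.g* against 0.577 CPM in mock-treated Sebastian. HORVU.MOREX.r3.2HG0209560, a Dof zinc finger transcription factor, had 20.6, 17.1 and 18.4 CPM in zeocin-treated *hvatr.g* against 29.8, 32.0 and 34.7 CPM in zeocin-treated Sebastian, and averaged 6.19 CPM in mock-treated *hvatr.g* against 22.9 CPM in mock-treated Sebastian. HORVU.MOREX.r3.3HG0323590, described as ribosomal protein L7/L12, had 41.3, 42.5 and 45.5 CPM in zeocin-treated *hvatr.g* against 22.9, 25.3 and 15.5 CPM in zeocin-treated Sebastian, and averaged 11.2 CPM in mock-treated *hvatr.g* against 0.724 CPM in mock-treated Sebastian. For the Dof and the ribosomal protein gene the fold difference between the genotypes was thus smaller under zeocin than under mock treatment.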

How the data were processed

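RNA was sequenced in paired reads, and per the labels and methods the authors mapped them with HISAT2 2.1.0 to the Morex v3 genome and counted them on transcript models with Subread 1.5.2. The deposited values are raw counts, 1 column for each of 12 libraries, without normalization. How strand and reads that map to several copies were treated is not given in the sources used here. The authors' own fold changes and p-values, in the supplement, were not used. Members and gene lists were chosen with earlier results of these data known.

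Rows passing filterByExpr (26039 of 83990) were fitted with edgeR 4.0.16 in R 4.3.3 (TMM, glmQLFit, glmQLFTest, 1 coefficient for each of 4 groups over all 12 libraries), with Benjamini-Hochberg adjustment over all rows tested. The common dispersion was 0.0457. A standard error is the log2 fold change divided by the root of its F value. For log2 CPM the prior count was 2. A group with 3 or fewer counts in every library was set to 3 counts in each for a lower bound, which covers counting error only. Libraries of a group differed beyond sampling noise (chi-square per gene 15.9 to 82.7 in the zeocin-treated groups), so none was a copy.

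Genes named are *ATR*, the 8 largest rises and 8 largest falls among called genes without overlap and with at least 1 CPM in the higher genotype, up to 5 called members of each list, the called DDR genes, the 6 smallest interaction p and DDR genes of the study's text. Exceptions are marked, and a further gene is not reported here. Descriptions and symbols are those of the study's supplement. Alternatives were DESeq2 1.42.0, limma-voom (limma 3.58.1), other scalings, no filter, no fold threshold, treatments fitted apart, a replicate block and leaving out each zeocin-treated library.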

Additional observations from a re-analysis of the deposited data

How the results depend on the processing

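No called gene that was named changed sign under any alternative, and 78 of the 115 called genes that were named kept their call in all of them, while 37 lost it under at least 1. With the adjusted p alone, 1672 genes were higher and 2649 lower in *hvatr.g* under zeocin, 1907 and 2173 under mock treatment, and 1097 and 1589 of those under zeocin were shared with mock treatment. By that rule 29 cell cycle genes, 86 histones, 10 kinesins and 20 DDR genes were lower and 20 DDR genes higher. The interaction gave 33 genes with no filter, 1 with limma-voom and 113 with DESeq2. Fitting each treatment apart left 11 cell cycle genes and 4 cyclins called, and limma-voom 3 nicotianamine synthases. The cause of these differences was not tested.

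Leaving out each zeocin-treated library in turn gave 552 to 849 higher and 991 to 1542 lower genes, of which 407 to 545 and 644 to 831 were shared with mock treatment, and 0 to 0 interaction calls. In the lists it left 11 to 23 cell cycle genes, 9 to 31 histones, 4 to 7 cyclins, 4 to 9 kinesins, 9 to 10 higher and 4 to 12 lower DDR genes, 10 to 14 glutathione, 16 to 24 peroxide, 23 to 28 peptide and 4 to 5 xenobiotic export genes, 8 to 8 nicotianamine synthases, 12 to 15 nitrogen genes and 4 to 6 high affinity nitrate transporters. Signs turned only in genes that were not called: over these fits *RPA70C.C* ran between -0.0523 and 0.627, *RECQL2.A* between -0.286 and 0.0425, *REV3* between -0.0269 and 0.351, *MRE11.A* between -0.0232 and 0.125 and *RAD9* between -0.208 and 0.0895 on the log2 scale. Scaling by library size only gave 0.0642 for *RAD9* and 0.0244 for *WEE1*.

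Deviations of same-numbered libraries from their group means correlated at 0.06, -0.05 and 0.10 under zeocin, so the numbers are not taken as pairs in this comparison. Between the treatments they correlated at 0.177, 0.0268 and 0.174 in *hvatr.g* and at 0.312, 0.383 and 0.543 in Sebastian. With a replicate block 1053 genes were higher and 1514 lower, and the interaction had 0 genes at an adjusted p under 0.05 and 1464 at an unadjusted one. Counts of a few reads limit genes near 0 in 1 genotype, for which 61 higher and 91 lower genes had 3 or fewer counts in every library of the lower genotype.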

Other observations

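Some called genes with neighbouring identifiers differed the same way. By a rule chosen after seeing the data (at least 5 genes called the same way among 10 consecutive tested genes in identifier order), 16 stretches held 103 genes lower in zeocin-treated *hvatr.g* and 3 held 15 higher genes, out of 1449 lower and 900 higher genes called. Identifier order was taken as the order along a chromosome, and near-identical neighbours may share reads. Medians given for a stretch cover only its called genes, which the rule picked for their calls under zeocin. Of all tested genes 5.56% were called lower and 3.46% higher.

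A stretch of chromosome 7H (HORVU.MOREX.r3.7HG0649480 to HORVU.MOREX.r3.7HG0649980) had 12 of 18 tested genes called lower under zeocin, at a median log2 fold change of -3.28, and 11 of them under mock treatment as well. They include 7 genes described as early nodulin 93 and 3 peroxidases. HORVU.MOREX.r3.7HG0649540, an early nodulin 93 gene, had 2.24, 10.2 and 3.75 CPM in zeocin-treated *hvatr.g*, against 83.8, 58.8 and 185 CPM in zeocin-treated Sebastian. A stretch of chromosome 5H (HORVU.MOREX.r3.5HG0446930 to HORVU.MOREX.r3.5HG0447010), mostly described as retrotransposon-related, had 8 of 9 called lower under both treatments, with a median of -4.24. For 4 of these 8, every zeocin-treated *hvatr.g* library had 3 or fewer counts, so the size of their folds is uncertain. On chromosome 5H, 5 dirigent genes, whose proteins steer lignan and lignin formation, lay in a stretch with 8 of 14 lower. On chromosome 1H, 4 metallothionein genes, which bind metal ions, lay in a stretch with 5 of 7 lower, of which 1 was called under mock treatment. HORVU.MOREX.r3.1HG0061580, one of the metallothioneins, had 7.58, 7.24 and 22.4 CPM in zeocin-treated *hvatr.g*, against 332, 25.4 and 27.6 CPM in zeocin-treated Sebastian, so Sebastian replicate 1 stood apart. On chromosome 3H, 5 genes described as glycine-rich cell wall structural protein 2 lay in a stretch with 6 of 8 lower under zeocin. Under mock treatment 0 of the 6 were called. The median was -1.81 there and -2.08 under zeocin, and 0 of the 6 had an interaction p under 0.05. Those 5 genes stayed under 1 CPM in every mock-treated library, so their mock folds rest on few reads. The other called gene, HORVU.MOREX.r3.3HG0315820, had 13.6, 36.9 and 16.95 CPM in zeocin-treated *hvatr.g*, against 91.9, 83.4 and 100.5 CPM in zeocin-treated Sebastian. In mock-treated plants it had 2.4, 2.1 and 1.0 CPM in *hvatr.g* and 4.4, 2.6 and 6.1 CPM in Sebastian. The 3 higher stretches hold glutathione S-transferases on chromosome 1H and the ubiquitin region on chromosome 2H among others.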
